A study of Mus musculus with 4 samples.

Results

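The cAMP pathway was examined in 4 melanocyte lines established from the skin of C57BL/6J pups aged 3 days. The set holds the adenylyl cyclases, phosphodiesterases, protein kinase A (PKA) subunits, A-kinase anchoring proteins (AKAPs) and CREB proteins, taken by their gene symbols, together with Mc1r, Gnas, Crem and the Crtc coactivators. In all, 74 of 18193 genes with a probe set of their own belonged to it, and Pde4c, which also fits the symbols, had no such probe set. RNA of each line was hybridized to 1 Affymetrix array, after growth to 80% confluency in medium with 10% FBS and 200 nM TPA, a phorbol ester that activates protein kinase C and replaces natural melanocyte mitogens. Line 9v (male) is WT and line 10d (male) is bcat*, which carries a stable mutant β-catenin made in the melanocyte lineage, both in the article and in the sample labels. For the other lines the sources oppose each other: the labels give 13d as bcat* and 14d as WT, and the article gives 13d as WT and 14d as bcat*. Both readings are therefore given wherever genotypes are compared, and neither is preferred. Each genotype is represented by 2 lines, so that differences between lines and differences between genotypes cannot be told apart within 1 pair.

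In melanocytes, α-melanocyte-stimulating hormone binds Mc1r, a receptor that acts through the G protein subunit encoded by Gnas to stimulate adenylyl cyclases. The cyclic AMP they make releases the catalytic subunits of PKA from its regulatory subunits, AKAPs hold PKA at defined places in the cell, and phosphodiesterases degrade the messenger. PKA phosphorylates CREB, which with its coactivators switches on genes that include Mitf, the transcription factor of pigment cells.

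The arrays were alike in their signal, with 35.8% to 36.1% of probe sets at or above an intensity of 32, the level taken as detected (5 on the log2 scale). The RNA integrity number ranged from 9.7 to 9.9. All 10 markers of melanocytes were detected in all 4 lines, with a summed intensity from 280142 to 296536, and 0 of 3 mast cell markers were. Of 7 fibroblast markers 1 was detected (Col1a2, at 175 in 9v, 80 in 10d, 24 in 13d and 17 in 14d), while the summed intensity of the list ranged from 71 to 232. Col3a1 and Dcn were at 8 or less in every line. Of the Schwann cell markers 2 of 2 measured were detected (summed intensity 28 to 3859), and S100b, which melanocytic cells are also known to express, was at 58 in 9v, 308 in 10d, 3836 in 13d and 5 in 14d. Of the keratinocyte markers 1 of 5 was detected (summed intensity 131 to 293) and of the macrophage markers 1 of 4 (65 to 87). The part of these genes in the results below was not tested. Xist was at 2124 in 13d and 1768 in 14d and at 4 in both other lines, as the sexes on the labels would have it, whereas the article describes the mice as male.

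Detection was judged on 1 probe set per gene, that of the highest mean. By it, 45 of the 74 genes were detected in at least 1 line, 42 in all 4 lines and 29 in none. Of these 29, Adcy3 had another probe set above the level in 14d. The detected genes comprised Mc1r and Gnas, 4 of 10 cyclases, 13 of 25 genes with a Pde symbol and 5 of 6 PKA subunits. They also held 11 of 16 AKAPs, 7 of 11 CREB family genes and 3 of 4 coactivators. Genes under the level in all lines included those of the retinal photoreceptors (Pde6a, Pde6b, Pde6c, Pde6g and Pde6h), of sperm (Akap3, Akap4 and Adcy10) and, among the coactivators, Crtc1. Among detected genes, 21 of 45 differed by at least 2-fold between the highest and the lowest line, which held for 40.1% of all detected genes. The median gene of the pathway had a highest-to-lowest ratio of 1.99 and the median of all detected genes 1.79, where values under 32 were raised to it. The number of pathway genes at least 2-fold apart was 13 without line 14d, and 16 or 17 without any other line. A line left out cannot widen the range of a gene, and the share of all genes was not recounted. Because the set was measured in whole cultures, fewer cells with a transcript and less of it per cell cannot be told apart.

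**Figure D1:**
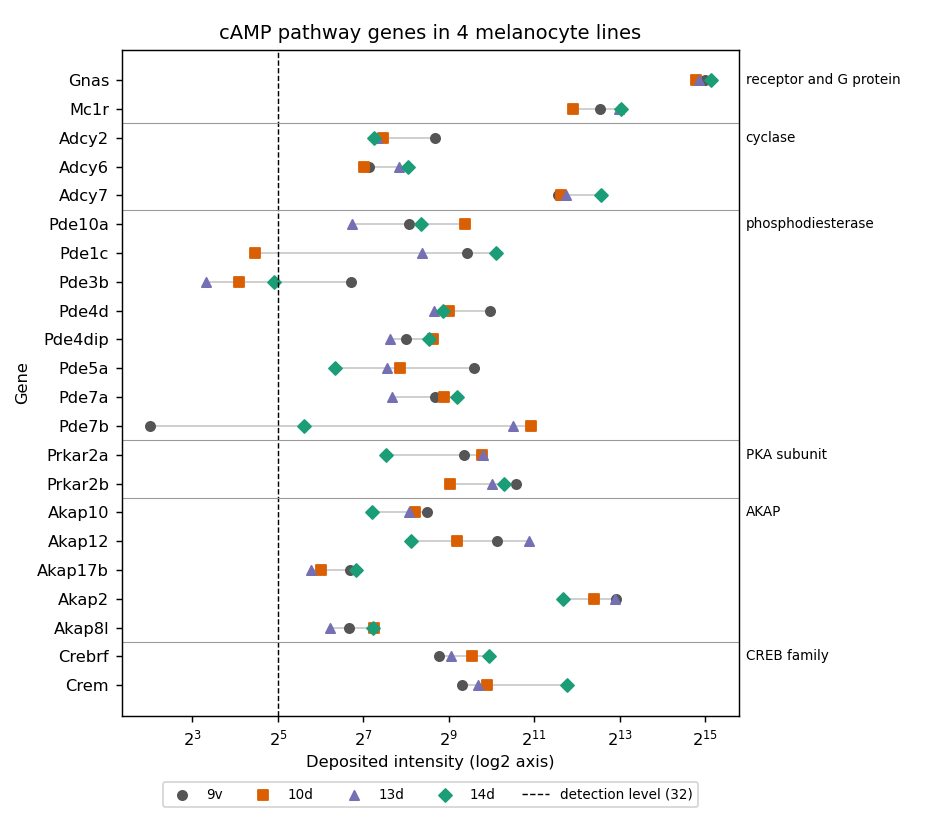
Deposited intensity (log2 axis) in each line, with 1 array per line and no error bars, of Gnas and the 21 detected genes that differ by at least 2-fold over the lines, ordered by role. Pde7b runs from 4 in 9v to 1937 in 10d and Pde1c from 22 in 10d to 1095 in 14d, and the dashed line is the detection level of 32.

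**Figure D2:**
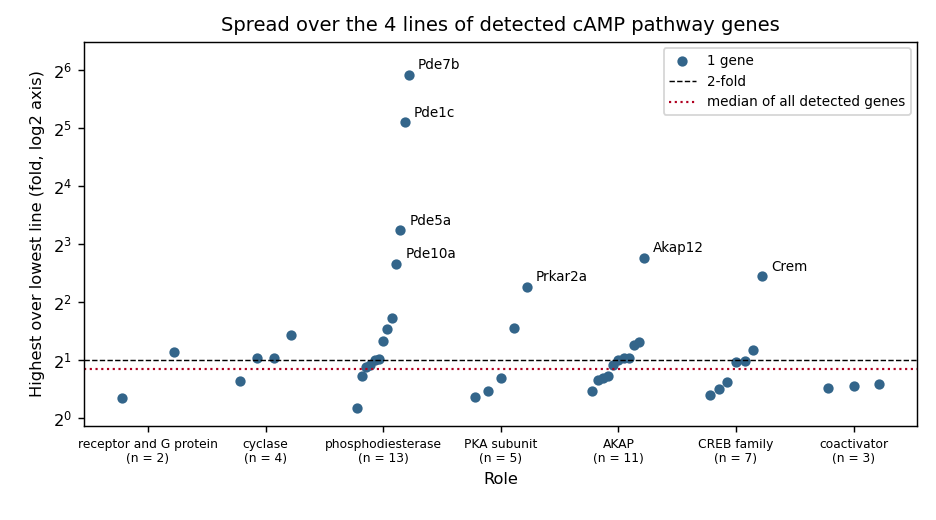
Ratio of the highest to the lowest of the 4 lines (log2 axis) for the 45 detected genes, 1 point per gene, by role, after values under 32 were raised to 32, so that the points of Pde7b, Pde1c and Pde3b are lower bounds. All 3 coactivators lie under 1.5. Of 13 genes with a Pde symbol, 8 lie above the 2-fold line, among them Pde4dip, which is not such an enzyme. Of all detected genes 40.1% do.

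The sequences around 4 start sites are shown because the genes they serve carry the main differences or the known link to pigment cells: Pde7b and Pde1c, which varied most, Mc1r, the receptor, and Pde4d, known as a target of Mitf in melanocytes. They are RefSeq windows on GRCm38.p6, each 300 bases long, from 250 bases before the annotated start to 50 after it, and were available for 59 of the 74 genes in 109 windows. Capitals mark matches, on either strand, to the cAMP response element TGACGTCA, to the short element TGACG that lies within it, to CATGTG or CACGTG, which Mitf can bind, or to a Tcf/Lef motif. The Tcf/Lef motif was searched as CTTTGAA, as CTTTGAT, as CTTTGTA and as CTTTGTT.
Pde7b, chr10:20548279-20548578, minus strand: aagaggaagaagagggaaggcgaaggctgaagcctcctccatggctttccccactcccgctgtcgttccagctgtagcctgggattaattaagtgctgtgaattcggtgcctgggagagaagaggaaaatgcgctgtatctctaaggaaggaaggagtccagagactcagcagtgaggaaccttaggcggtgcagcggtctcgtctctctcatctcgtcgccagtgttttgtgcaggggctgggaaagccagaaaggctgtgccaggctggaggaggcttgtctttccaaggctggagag
Pde1c, chr6:56369585-56369884, minus strand: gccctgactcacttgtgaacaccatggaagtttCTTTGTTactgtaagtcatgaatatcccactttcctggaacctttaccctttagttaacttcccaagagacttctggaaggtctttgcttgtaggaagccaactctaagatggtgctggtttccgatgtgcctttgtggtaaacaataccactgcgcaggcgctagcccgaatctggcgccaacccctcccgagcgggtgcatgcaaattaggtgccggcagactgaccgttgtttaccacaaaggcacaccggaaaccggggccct
Mc1r, chr8:123406832-123407131, plus strand: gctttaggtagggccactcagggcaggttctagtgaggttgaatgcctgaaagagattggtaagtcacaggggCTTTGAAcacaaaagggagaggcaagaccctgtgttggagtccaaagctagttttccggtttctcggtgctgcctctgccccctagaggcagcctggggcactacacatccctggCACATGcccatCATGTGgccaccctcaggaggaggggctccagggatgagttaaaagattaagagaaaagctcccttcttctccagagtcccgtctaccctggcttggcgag
Pde4d, chr13:108653927-108654226, plus strand: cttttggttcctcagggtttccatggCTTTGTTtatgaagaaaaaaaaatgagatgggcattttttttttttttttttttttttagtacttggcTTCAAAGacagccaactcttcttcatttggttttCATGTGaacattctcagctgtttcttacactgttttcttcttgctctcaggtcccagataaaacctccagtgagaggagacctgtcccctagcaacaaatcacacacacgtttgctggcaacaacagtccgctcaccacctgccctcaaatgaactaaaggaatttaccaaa
The Mc1r window held CATGTG motifs 62 and 51 bases before the start and a Tcf/Lef match 177 bases before it. The Pde4d window held a CATGTG 122 bases before the start and Tcf/Lef matches 224 and 156 bases before it, and this window of Pde1c a Tcf/Lef match 217 bases before it. The other windows of Pde1c held none of the searched letters. The window of Pde7b held none of these letters. Over the set, a full cAMP response element was found in 2.75% of windows (1.79% of all 32851 windows), in Creb5 and Prkar1a. The short element was found in 25.7% (20.8% of all windows), CATGTG in 17.4% (14.2%), CACGTG in 9.17% (7.15%) and a Tcf/Lef match in 11.0% (16.9%). These are matches of letters and do not show that a factor binds.

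Mc1r was lowest in bcat* line 10d. Its intensity was 5921 in 9v, 3833 in 10d, 8071 in 13d and 8343 in 14d, and its second probe set had the same order of the highest and the lowest line, with 2490, 1500, 2993 and 3545. Line 10d thus had a log2 difference from 9v of -0.63 and lay 2.11-fold below 13d and 2.18-fold below 14d. After median centring of the arrays, which lifts 10d, the 4 lines lay less than 2-fold apart, and after quantile normalization they did not. The centring rests on array medians of 7 in 10d and 8 in the other lines, under the detection level. Under neither reading do the genotypes separate, since 10d lies on the low side and the other bcat* line on the high side. Gnas, measured by a probe set shared among transcripts of its locus, varied by 1.27-fold, with 32558 in 9v, 28410 in 10d, 29523 in 13d and 36209 in 14d. Neither gene was 2-fold apart between 10d and 9v.

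Of the adenylyl cyclases, Adcy2, Adcy6, Adcy7 and Adcy9 were detected by the probe set that stood for the gene. Adcy2, an isoform that G protein βγ subunits stimulate, was highest in WT line 9v, at 406, and at 175 in 10d, 159 in 13d and 151 in 14d, so that 9v stood at least 2-fold above each of the others. Adcy6, which calcium inhibits, was at 141 in 9v, 130 in 10d, 229 in 13d and 265 in 14d. By this gene both female lines lay above both male lines. The range was under 2-fold after median centring but not after quantile normalization. Adcy7 was at 2984 in 9v, 3143 in 10d, 3414 in 13d and 6090 in 14d, and all of its 3 detected probe sets were highest in 14d. Adcy9 varied by 1.55-fold. Adcy1, Adcy4, Adcy5, Adcy8 and Adcy10 did not reach the detection level in any line. Adcy3 was at 16 to 29 by the probe set used for it, and another of its probe sets gave 5 in 9v, 6 in 10d, 8 in 13d and 63 in 14d.

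The phosphodiesterases held the widest differences, and Pde7b, Pde1c and Pde3b were detected in some lines and not in others. Pde7b, which degrades cAMP with high affinity, was at an intensity of 1937 in 10d, 1451 in 13d and 49 in 14d, and at 4, under the detection level, in 9v. It was thus at least 60.5-fold higher in 10d and at least 45.3-fold higher in 13d than in 9v, and 39.5-fold higher in 10d and 29.6-fold higher in 13d than in 14d. The lines high in Pde7b are those the labels call bcat*, and the reading of the article splits them between the genotypes. A single one of its 3 probe sets was detected. The others gave 9 and 14 in 10d and 10 and 6 in 13d, against 4 or 5 in 9v and 14d. Its paralogue Pde7a was at 406 in 9v, 475 in 10d, 204 in 13d and 586 in 14d, and all of its 7 detected probe sets were lowest in 13d.

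Pde1c, which calcium and calmodulin activate and which degrades cAMP and cGMP, was at 682 in 9v, 331 in 13d and 1095 in 14d, but at 22, under the detection level, in 10d. Line 10d was at least 21.3-fold below 9v, at least 10.3-fold below 13d and at least 34.2-fold below 14d. A second probe set that reached the detection level did so in 14d alone, with 50 there, 18 in 9v, 10 in 10d and 12 in 13d. Under the labels both bcat* lines lay below both WT lines. Under the article they did not, as 14d was the highest line.

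Pde5a, which degrades cGMP, was at 764 in 9v, 233 in 10d, 188 in 13d and 81 in 14d, a range of 9.43-fold with 9v at the top and 14d at the bottom in both detected probe sets. Both lines stood at least 2-fold from all others, in opposite directions. Pde10a, which degrades both messengers, was at 267 in 9v, 669 in 10d, 106 in 13d and 325 in 14d. Its 10d value was more than 2-fold above, and its 13d value more than 2-fold below, that of every other line. A second probe set gave 101, 314, 37 and 169, in the same order of lines. Both of these lines are bcat* by the labels, so that the labelled genotypes overlap for Pde10a. By the article, the bcat* lines 10d and 14d both lay above the WT lines 9v and 13d. The log2 difference was then 1.47 ± 0.65 (SE, limma adjusted p = 0.984).

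Pde3b, a cAMP phosphodiesterase that insulin signalling activates, was detected in 9v alone, with 105 there, 17 in 10d, 10 in 13d and 30 in 14d. Pde4d was at 1003 in 9v, 512 in 10d, 400 in 13d and 462 in 14d, so that 9v was the high line once more, though less than 2-fold above 10d. Pde4b, of the same cAMP-specific family, varied by 1.87-fold, Pde8a by 1.83-fold and Pde2a by 1.64-fold. Other genes share the symbol and not the enzyme's role. Pde4dip, myomegalin, a scaffold at the centrosome and Golgi, was at 257 in 9v, 396 in 10d, 197 in 13d and 373 in 14d. Pde6d, a carrier of prenylated proteins, was at 2955 in 9v and 1480 in 10d, just under 2-fold, and Pde12, a mitochondrial enzyme that acts on RNA, varied by 1.12-fold.

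**Figure D3:**
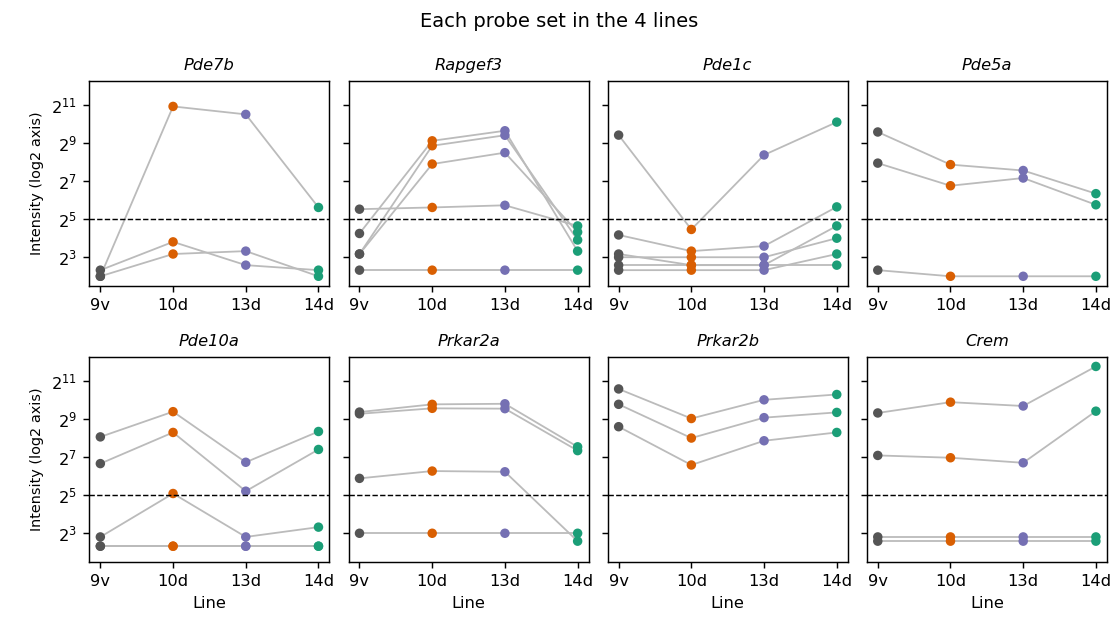
Intensity (log2 axis) of every probe set of 8 genes in the 4 lines, with a grey line joining the values of 1 probe set and the detection level of 32 dashed. The 3 probe sets of Rapgef3 that reach over 200 are high in 10d and 13d, and those of Prkar2a above the level are lowest in 14d, while Pde7b rests on a single detected probe set.

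Of the 5 detected PKA subunits, 2 varied by at least 2-fold, the type II regulatory subunits, beside 40.1% of all detected genes. Prkar2a was at 659 in 9v, 873 in 10d, 891 in 13d and 186 in 14d, and 14d was lowest in all of its 3 detected probe sets. Line 14d lay 3.54-fold below 9v, 4.69-fold below 10d and 4.79-fold below 13d. Prkar2b had another pattern, with 1529 in 9v, 521 in 10d, 1029 in 13d and 1250 in 14d, and 10d was the lowest line in all of its 3 probe sets. The log2 difference of 10d from 9v was -1.55, a 2.93-fold lower intensity. The type I subunit gene Prkar1a varied by 1.38-fold, the catalytic subunit genes Prkaca and Prkacb by 1.61-fold and 1.28-fold, and Prkar1b, at 18 or less, was under the detection level.

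Of the 11 detected AKAPs, 5 varied by at least 2-fold, beside 40.1% of all detected genes. Line 14d was the lowest in 3 of these 5. Among all detected genes too, 14d had the most at least 2-fold below the 3 other lines, with 351 against 89 to 228. Akap12, gravin, a scaffold for PKA and protein kinase C, was at 1121 in 9v, 582 in 10d, 1868 in 13d and 275 in 14d, so that 14d was at least 2-fold below each of the others. Its only probe set is of the kind that detects alternative transcripts of 1 gene. Akap2, whose transcripts can be joined to those of the neighbouring Palm2, was at 7708 in 9v, 5392 in 10d, 7567 in 13d and 3240 in 14d. Akap10, which binds both types of regulatory subunit, was at 362, 296, 267 and 146 in the same order of lines. Both genes had 14d as the lowest line in every detected probe set. Near the detection level, Akap17b was at 103 in 9v, 64 in 10d, 55 in 13d and 113 in 14d, and Akap8l, a nuclear protein, at 101, 152, 75 and 149. The other detected genes, which include the mitochondrial anchor Akap1 and the centrosomal Akap9, varied by 1.38-fold to 1.99-fold.

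Of the 7 detected CREB family genes, 2 varied by at least 2-fold, Crem and Crebrf, beside 40.1% of all detected genes. Crem, which encodes activators and, from an internal promoter that cAMP induces, the repressor ICER, was at 638 in 9v, 945 in 10d, 822 in 13d and 3470 in 14d. Line 14d was 3.67-fold above 10d and 5.44-fold above 9v, and a second probe set gave 681 in 14d against 104 to 136 in the others. Crebrf, a regulator of the unfolded protein response, was at 439 in 9v, 749 in 10d, 529 in 13d and 983 in 14d. Creb1, the main CREB gene, varied by 1.31-fold, and Creb3, Creb3l2, Crebl2 and Crebzf by 1.41-fold to 1.98-fold. The coactivators Crebbp, Crtc2 and Crtc3 varied by 1.42-fold to 1.49-fold, and Crtc2 lay close to the detection level, at 38 to 54. Creb3l1, Creb3l3, Creb3l4 and Creb5 were at 7 or less.

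The pair of lines with undisputed genotypes was then compared. Of the 45 genes, 2 were at least 2-fold higher in 10d, the bcat* line, than in 9v, the WT line, namely Pde7b and Pde10a, beside 7.85% of all detected genes. When a gene was taken as the mean of all its probe sets, neither reached 2-fold, with log2 differences of 0.97 and 0.48. A further 5 were at least 2-fold lower, Pde1c, Pde5a, Pde3b, Prkar2b and Adcy2, beside 10.0% of all detected genes. Pde3b did not reach 2-fold with a detection level of 64 (log2 difference -0.71), and Pde1c was not among the genes called with the mean of all probe sets. The median log2 difference of the 45 genes was -0.12 and that of all genes 0.00. Apart from the PKA subunit Prkar2b, these genes encode enzymes that make or break down cyclic nucleotides. The set is rich in such genes by its definition, with 4 cyclases and 13 genes with a Pde symbol among the 45.

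The same count was made for the other pairs of lines, which share arrays with one another. Lines 13d and 9v were at least 2-fold apart in 7 of 45 genes (13.0% of all genes), 14d and 9v in 11 of 45 (15.4%), 13d and 10d in 7 of 44 (14.8%), 14d and 10d in 11 of 44 (23.9%) and 13d and 14d in 10 of 44 (19.7%). Over the 6 pairs, 15.6% to 25.0% of the pathway genes were 2-fold apart, against 13.0% to 23.9% of all detected genes. Lines 10d and 9v were 2-fold apart in 7 of 45 genes and in 17.9% of all genes. Adcy2, Pde3b and Pde5a were lower in each of the other lines than in 9v by at least 2-fold, and these values therefore did not follow genotype by either reading.

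**Figure D4:**
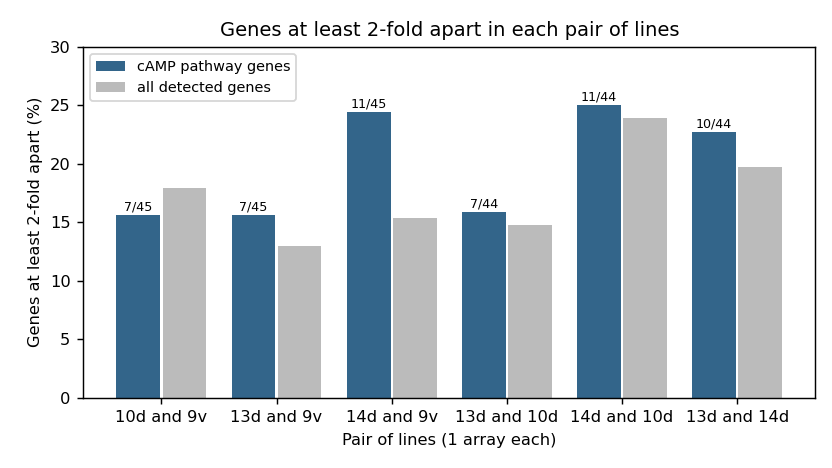
Percentage of genes at least 2-fold apart in either direction in each pair of lines (1 array each), for the cAMP pathway genes (blue, with the counts above the bars) and for all detected genes (grey). The pathway lies between 15.6% and 25.0% and all detected genes between 13.0% and 23.9%. The pathway bar is the higher in every pair except 10d and 9v. In those pairs the gap runs from 15.9% against 14.8% (13d and 10d) to 24.4% against 15.4% (14d and 9v). Pairs share arrays, and the gaps were not tested.

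Counted by line, 9v stood at least 2-fold apart from all 3 others in 3 of 45 genes (2.63% of all detected genes), 10d in 2 (4.79%), 13d in 1 (2.77%) and 14d in 4 (6.23%). For 9v these were Adcy2, Pde3b and Pde5a, all high, for 10d the high Pde10a and the low Pde1c, and for 13d the low Pde10a. For 14d they were the high Crem and the low Akap12, Pde5a and Prkar2a.

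A test over all 4 lines was run with limma on log2 intensities, for 8892 genes with a mean of at least 5, among them 44 of the set. With the genotypes of the labels, 0 of 44 passed an adjusted p of 0.05 (0.0675% of all genes did) and 4 had an unadjusted p under 0.05 (8.07% of all genes). These were Pde7b, with a log2 difference of bcat* from WT lines of 6.90 ± 1.30 (SE, limma adjusted p = 0.463), Akap17b, with -0.86 ± 0.25 (limma adjusted p = 0.568), Akap7, with -0.81 ± 0.25, and Creb3, with 0.72 ± 0.26. The size for Pde7b rests on the deposited value of 9v under the detection level. Pde1c had a difference of -3.34 ± 1.41 (limma adjusted p = 0.656), which rests likewise on the value of 10d under the level, and Prkar2b one of -0.92 ± 0.43. With the genotypes of the article, 0 of 44 passed (0% of all genes) and 2 had an unadjusted p under 0.05 (3.43% of all genes). These were Akap12, at -1.85 ± 0.53 (limma adjusted p = 0.984), and Crebrf, at 0.83 ± 0.29. With this reading Pde7b was at 2.02 ± 3.61, Pde1c at -1.61 ± 2.08 and Prkar2b at -0.64 ± 0.55. Under neither reading did a difference within the set exceed the spread between lines after adjustment.

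Beyond these genes, lists of other parts of the pathway were compared between 10d and 9v. Of the effectors of cAMP other than PKA, Rapgef3, which encodes Epac1, an exchange factor that cAMP activates, was at 19 in 9v, 554 in 10d, 799 in 13d and 10 in 14d, so that the lines high in Pde7b were also high in Rapgef3. It was at least 17.3-fold higher in 10d than in 9v, and 3 of its 5 probe sets had this pattern. With the genotypes of the labels its log2 difference was 5.59 ± 0.44 (limma adjusted p = 0.111), a size that rests on values of both WT lines under the detection level, and with those of the article -0.73 ± 2.86 (limma adjusted p = 0.992). It was the 1 of 2 detected genes of its list that differed by 2-fold between 10d and 9v. Of all detected genes, 7.85% were 2-fold or more higher in 10d.

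Of 6 PKA inhibitors and CREB-regulating kinases, all detected, 1 was 2-fold lower in 10d than in 9v, beside 10.0% of all detected genes. This was Pkia, a peptide inhibitor of PKA, with 3619 in 9v, 1109 in 10d, 1818 in 13d and 2840 in 14d. The others differed by less than 2-fold between 10d and 9v, for a median log2 difference of 0.01. Pkib, named after its values were seen, was at 1108, 1151 and 1614 in 9v, 10d and 13d and at 215 in 14d. Of 5 detected G protein genes 1 was 2-fold lower in 10d, Rgs2, a regulator of G protein signalling, at 128 in 9v, 28 in 10d, 220 in 13d and 518 in 14d (median of the list -0.70). Gnai2 and Gnai3, which encode inhibitory subunits, were at 5962 and 3716 in 9v and 3665 and 1927 in 10d. Gnai1, another gene of this kind, was at 7 in 9v and 63 in 10d, at least 1.97-fold higher in 10d.

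Of the other receptors coupled to cAMP production 3 of 10 measured were detected. Of these 3, 2 were at least 2-fold lower in 10d than in 9v, beside 10.0% of all detected genes. The median log2 difference of the 3 was -1.61. Pth1r, the parathyroid hormone receptor, was at 288 in 9v, 11 in 10d, 71 in 13d and 119 in 14d, and Gpr161, a receptor of the primary cilium, at 98, 5, 6 and 69. Both were under the detection level in 10d, which was at least 9.00-fold below 9v for Pth1r and at least 3.06-fold for Gpr161. The ligand genes of the melanocortin system were not detected where measured, and Mgrn1 and Atrn, listed with them, differed by less than 2-fold between 10d and 9v.

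Of genes known to be induced through CREB, 8 were detected, among them Crem of the set. Of these, 1 was 2-fold higher in 10d than in 9v, beside 7.85% of all detected genes. This was Nr4a2, an orphan nuclear receptor, at 96 in 9v, 265 in 10d, 145 in 13d and 169 in 14d. None was 2-fold lower by the probe set used, with a median of 0.03. Ppargc1a was at 95 in 9v and 62 in 10d by that probe set, and at 78 and 21 by another. A further probe set of Nr4a2 that was detected in all lines gave 76 in 9v and 109 in 10d, less than 2-fold apart. Nr4a3, named after its values were seen, was at 7602 in 9v and 1497 in 14d. The 6 pigment genes downstream of Mc1r, among them Mitf, Tyr, Tyrp1 and Dct, were all detected. None of them differed by 2-fold over the 4 lines, and the median between 10d and 9v was 0.01. Tyrp1, Dct and Pmel were at 49559 to 57474, where the highest value of an array was 72776 to 84904. Whether signal this high could still show a difference was not tested. Of 4 genes of receptor desensitization detected in 10d or 9v, none differed by 2-fold between these lines, with a median of -0.06.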

How the data were processed

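RNA of 4 melanocyte lines was measured, 1 Affymetrix array per line. The authors deposited intensity values, 1 for each probe set and array. The submitters' processing notes name GCRMA, whose version is not given in the sources used here. Deposited values held no fractions and reached 84904, so they were read as linear, although the planned design had assumed log2 values, and converted to log2. The annotation paired 34945 of 45037 probe sets with a single gene and 932 with several, and did not list 9160. Of those with a single gene, 34741 had their gene in a RefSeq table (GRCm38.p6), and 0 symbols needed an update. Where a gene had several probe sets, that of the highest mean on the log2 scale was used. Genes were called detected at an intensity of 32, and values under it were raised to it in counts and folds, where a fold is then given as at least that fold. Precision is limited by the 4 arrays and, for dim probe sets, by the rounding to whole numbers.

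Genotypes were tested with limma (lmFit and eBayes) without covariates and with Benjamini-Hochberg adjustment over all genes with a mean log2 of at least 5, and the function was first tested on simulated data. No source tells of repeated cultures within a line, so p-values measure only the spread between these lines. Genes named in full were Mc1r, Gnas, Pde7b and those detected with a ratio of at least 2 over the lines, with up to 3 of the brightest in each role as examples, and of other lists up to 3 genes beyond 2-fold between 10d and 9v. Further genes were named after their values were seen. Gene members and lists were chosen with earlier results of these data known. Alternatives changed the probe sets, normalization, detection level, threshold, filter, prior, a sex term and the lines used. Python 3.11.15, NumPy 2.4.6, pandas 2.3.3, matplotlib 3.10.9, R 4.3.3 and limma 3.58.1 were used.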

Additional observations from a re-analysis of the deposited data

Results flagged for a closer look

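By the labels, lines 10d and 9v are the male and lines 13d and 14d the female bcat* and WT lines. Pde10a and Pde5a differed between the genotypes of the labels by at least 2-fold in opposite directions in the male and the female lines. For Pde10a the log2 difference was 1.33 in the male and -1.62 in the female lines, so that the second less the first was -2.94. For Pde5a these were -1.71 and 1.21, and the second less the first was 2.93. With 1 array per line this difference was not tested, and 177 of 8929 genes detected in both pairs had such opposite differences. The labels' reading of 13d and 14d, on which it rests, is opposed by the article. The article swaps the genotypes of 13d and 14d, which reverses the sign in the female lines. By construction, neither gene then differed in opposite directions, with Pde10a higher and Pde5a lower in the bcat* line of both sexes.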

How the results depend on the processing

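The labels give no replicate numbers, but their sexes pair 10d with 9v and 13d with 14d. With sex as a term in limma, 0 genes of the set passed under either reading (lowest adjusted p 0.422, with the labels). With the mean of all probe sets, 0 genes of the set were at least 2-fold higher in 10d than in 9v instead of 2, with a log2 difference of 0.97 for Pde7b and 0.48 for Pde10a. This mean takes in probe sets that were detected in no line. At a threshold of 1.5-fold, 6 genes were higher, 13 lower and 35 apart over the 4 lines, and at 3-fold 1, 3 and 8, as a threshold sets a count by construction. The number of genes at least 2-fold apart over the lines, an alternative chosen after seeing the data, was between 13 (without line 14d) and 17 when each line was left out in turn. Such an omission cannot widen the range of a gene, and the share of all genes was not recounted. With no filter on dim genes, 1 gene passed limma's adjusted p of 0.05 with the genotypes of the labels, Creb3l4, at 6 in both bcat* and 7 in both WT lines, under the detection level. No other alternative brought a gene of the set past it under either reading. When each line was left out in turn, 0 passed in every case. The lowest adjusted p in the set ranged from 0.0600 to 0.913 over the other alternatives with the labels. Over all genes, 6 passed with the labels and 0 with the article, against 281 and 71 with no filter. With the labels 12 passed after quantile normalization and 0 with the filter on the highest array, an intensity trend, a sex term or any line left out. The log2 difference of Pde7b between 10d and 9v was 6.92 with a detection level of 16, 4.92 with one of 64 and 8.92 with deposited values, so that its size follows the floor. Of 22 named genes, 5 moved by over 1.5-fold in at least 1 setting and 0 that differed by 2-fold reversed. Median centring raised the median difference of all detected genes between 10d and 9v from 0.00 to 0.19. Over the probe set, scaling and detection level alternatives, 14 to 24 genes were 2-fold apart over the lines. For dim genes, what could be compared was limited by signal over background.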
